A study of Homo sapiens with 18 samples.

Results

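The giant cytosolic and nuclear proteins described here are 9 genes whose products are exceptionally long chains made without entering the endoplasmic reticulum: DYNC1H1, PRKDC, UBR4, HERC1, HERC2, BIRC6, HUWE1, FLNA and TLN1. They are listed by transcript identifier and protein length, with no measured value in the rule. All 9 were found in the mRNA tables and 8 in the footprint tables, among 13901 mRNA features and 11065 footprint features that were tested; there are no footprint values for the FLNA entry. Transcript entries whose counts were the same throughout an assay were joined into 1 feature. In every table the length column was the protein length less 1 fixed trim, 20 codons for footprints and 19 for mRNA, so no entry was dropped.

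The measurements came from 3 lines of HEK293, a human embryonic kidney line grown in DMEM with fetal bovine serum: UFM1-KO and UFSP2-KO, made with Cas9 and guides against UFM1 and UFSP2, and WT cells. UFM1 is a small ubiquitin-like modifier that is joined to other proteins, among them a large-subunit ribosomal protein, and UFSP2 is a protease that takes it off. Ribosome-protected fragments were sequenced from a membrane fraction, which is the Triton-soluble part of what digitonin leaves behind, and from a cytosol fraction, which is the digitonin lysate, and mRNA was sequenced from whole Triton lysates after ribosomal RNA depletion. The groups were UFM1-KO membrane, UFSP2-KO membrane, WT membrane, UFM1-KO cytosol, UFSP2-KO cytosol, WT cytosol, UFM1-KO mRNA, UFSP2-KO mRNA and WT mRNA, with 2 libraries each, marked a and b. Each knockout was 1 clonal line, so its effect cannot be told apart from clone-to-clone differences. No label ties libraries a and b to separate cultures, so p-values measure the spread between these libraries, which may be technical.

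Translation of a protein with no signal sequence is usually carried out by free ribosomes, and ribosomes making secreted or membrane proteins are docked on the endoplasmic reticulum. A very long coding sequence takes long to translate and carries many ribosomes at once, which makes a heavy polysome. The 9 genes fall into 4 roles. DYNC1H1 encodes the heavy chain of cytoplasmic dynein, the motor that carries cargo towards the minus ends of microtubules. PRKDC encodes the catalytic subunit of DNA-dependent protein kinase, which acts in the joining of broken DNA ends in the nucleus. UBR4, HERC1, HERC2, BIRC6 and HUWE1 encode giant proteins that attach ubiquitin: UBR4 reads N-terminal degradation signals, HERC2 acts in the response to DNA damage, BIRC6 is an inhibitor of apoptosis that joins ubiquitin to caspases, and HUWE1 is a HECT-type ligase with many substrates. FLNA encodes filamin A, which crosslinks actin filaments, and TLN1 encodes talin, which links integrins to actin.

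By protein length the order was UBR4 (ENST00000375254) with 5183 residues, HERC1 (ENST00000443617) with 4861, BIRC6 (ENST00000421745) with 4857, HERC2 (ENST00000261609) with 4834, DYNC1H1 (ENST00000360184) with 4646, HUWE1 (ENST00000262854) with 4374, PRKDC (ENST00000314191) with 4128, FLNA (ENST00000369850) with 2647 and TLN1 (ENST00000314888) with 2541. On GRCh38.p14 UBR4 lies at chr1:19074510-19210266, BIRC6 at chr2:32357023-32618878, TLN1 at chr9:35696948-35732195, DYNC1H1 at chr14:101964573-102056443, HERC2 at chr15:28111040-28322179 and HERC1 at chr15:63608618-63833948. HUWE1 lies at chrX:53532096-53686719 and FLNA at chrX:154348531-154374634. The HUWE1 feature held 2 entries with identical counts in each assay. HERC2 has partial duplicate copies in the genome, so reads shared with them make its counts uncertain. Counts per library ran from 24 for HERC1 to 7239 for PRKDC in footprints, and from 1009 for HERC1 to 42074 for FLNA in mRNA, so HERC1 had the widest counting error of the 9.

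The stretch of DNA just before the annotated gene start is shown for the 5 members whose mRNA differed between the knockouts, as described further on. Each run is the 100 bases upstream of the RefSeq start on GRCh38.p14, read 5′ to 3′ on the strand of the gene, and capitals mark GC boxes and CCAAT boxes on either strand, overlapping matches included. A GC box was GGGCGG, which reads CCGCCC from the opposite strand. A CCAAT box read from the opposite strand is ATTGG.
UBR4, chr1:19210267-19210366, minus strand: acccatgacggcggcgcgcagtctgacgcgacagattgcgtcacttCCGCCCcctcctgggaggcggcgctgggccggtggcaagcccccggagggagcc
HUWE1, chrX:53686720-53686819, minus strand: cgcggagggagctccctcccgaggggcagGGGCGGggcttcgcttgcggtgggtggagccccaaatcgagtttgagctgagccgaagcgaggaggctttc
DYNC1H1, chr14:101964473-101964572, plus strand: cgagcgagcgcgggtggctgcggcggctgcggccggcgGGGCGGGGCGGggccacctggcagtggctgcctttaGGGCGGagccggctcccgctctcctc
HERC2, chr15:28322180-28322279, minus strand: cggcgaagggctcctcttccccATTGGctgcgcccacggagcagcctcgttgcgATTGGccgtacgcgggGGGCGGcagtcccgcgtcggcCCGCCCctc
FLNA, chrX:154374635-154374734, minus strand: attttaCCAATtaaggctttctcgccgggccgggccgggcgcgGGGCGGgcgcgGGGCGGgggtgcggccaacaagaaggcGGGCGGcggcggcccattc
All 5 windows held a GC box, and DYNC1H1 and FLNA held 3. Over the 8 members with a RefSeq window, 7 held a GC box and 2 (HERC2 and FLNA) a CCAAT box, where 31.3% and 18.1% of 35116 windows of the same length held them. HUWE1 has 3 annotated starts, and the window at the outer end of the gene is shown. These matches are letters in a window, and binding was not measured.

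Footprint libraries held 1393032 to 11388755 counts and mRNA libraries 37451244 to 68675420, and across features the libraries of a group had Pearson correlations of 0.957 to 0.98 (footprints) and 0.973 to 0.976 (mRNA). Values are given as CPM, counts scaled to a common library size with TMM factors. The transcript identifiers of UFM1, UFSP2 and of genes that mark the fractions or HEK293 cells are paired with no names at hand, so these checks are not analysed here. In the mRNA of WT, library b stood apart from library a in long transcripts.

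Levels were compared between genes as CPM per 1000 codons. In UFM1-KO membrane footprints PRKDC was highest at 199.5 ± 2.6, followed by TLN1 at 119 ± 5.28, HUWE1 at 108 ± 4.81, DYNC1H1 at 73.6 ± 0.30 and UBR4 at 48.4 ± 1.75 CPM per 1000 codons (SD, n = 2). BIRC6 at 22.2 ± 4.06 and HERC2 at 17.5 ± 0.96 differed by less than the sum of their SDs, and HERC1 was lowest at 8.77 ± 1.71 CPM per 1000 codons. The same order held in the other 5 groups of footprints, except in UFSP2-KO cytosol, where TLN1 at 124 ± 21.2 and PRKDC at 121 ± 34.5 CPM per 1000 codons did not differ beyond their spread. By the same measure the neighbours within their spread were HUWE1 at 87.7 ± 3.73 and DYNC1H1 at 82.0 ± 4.51, and UBR4 at 33.6 ± 3.66 and BIRC6 at 32.2 ± 3.24, at the UFSP2-KO membrane. In UFM1-KO cytosol they were BIRC6 at 17.7 ± 2.63 and HERC2 at 15.8 ± 1.26, and in UFSP2-KO cytosol also UBR4 at 22.1 ± 0.46 and BIRC6 at 20.8 ± 0.93. In WT cytosol PRKDC and TLN1 lay within their spread, and so did DYNC1H1 and UBR4, and UBR4 and BIRC6; at the WT membrane no neighbours did. In WT the levels ran from 227 ± 27.3 for PRKDC to 7.96 ± 0.16 for HERC1 at the membrane, and from 96.5 ± 4.71 for PRKDC to 4.82 ± 0.77 CPM per 1000 codons for HERC1 in the cytosol.

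At the mRNA level FLNA led in each line, with 337 ± 5.6 CPM per 1000 codons in UFM1-KO, 644 ± 135 in UFSP2-KO and 578 ± 160.1 in WT (SD, n = 2). HERC1 was lowest in each, with 23.4 ± 0.17, 16.9 ± 1.71 and 21.7 ± 4.98 CPM per 1000 codons. HUWE1 had 154 ± 2.78 in UFM1-KO, 87.7 ± 1.46 in UFSP2-KO and 197 ± 90.2 CPM per 1000 codons in WT, and PRKDC had 160.3 ± 15.9, 147 ± 25.8 and 175 ± 53.5. PRKDC and HUWE1 differed beyond their spread in UFSP2-KO, and by less than the sum of their SDs in UFM1-KO and in WT. From HUWE1 down through PRKDC, TLN1, DYNC1H1, UBR4 and HERC2 to BIRC6, each neighbour in WT differed from the next by less than the sum of their SDs. The other neighbours this close were HERC2 and BIRC6 for UFM1-KO, and TLN1 and HUWE1, BIRC6 and DYNC1H1, and HERC2 and UBR4 for UFSP2-KO.

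The comparison of the membrane fraction with the cytosol asks how the share of these messages among footprints differed between the fractions. CPM are scaled within each library, and the total of ribosomes in each fraction was not measured. Relative to the other messages, footprints of the giant proteins were more abundant in the membrane fraction in every line. With edgeR's quasi-likelihood test and p-values adjusted after Benjamini and Hochberg, 4 of 8 members were called higher in UFM1-KO membrane, 8 of 8 in UFSP2-KO membrane and 7 of 8 in WT membrane, and 0 were called lower. Over all features tested, 23%, 24.8% and 25.3% were called higher in UFM1-KO, UFSP2-KO and WT, and 5.87%, 12.2% and 12.2% lower. The members had median log2 ratios of 0.50 for UFM1-KO, 0.76 for UFSP2-KO and 0.93 for WT, against medians over all features of 0.02, 0.01 and -0.02.

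The dynein heavy chain was the most shifted member in each line. DYNC1H1 had 342 and 339.6 CPM in UFM1-KO membrane against 173 and 213 CPM in UFM1-KO cytosol, 394 and 365 CPM in UFSP2-KO membrane against 137 and 137 CPM in UFSP2-KO cytosol, and 338 and 379 CPM in WT membrane against 142 and 125 CPM in WT cytosol. Every membrane library was higher than every cytosol library, and the cytosol of UFM1-KO lay above the cytosol of the other lines. The log2 ratios were 0.82 in UFM1-KO (SE 0.20, edgeR adjusted p = 0.00171), 1.47 in UFSP2-KO (SE 0.20, edgeR adjusted p = 7.8e-07) and 1.44 in WT (SE 0.20, edgeR adjusted p = 1.07e-06), which is 1.76-fold, 2.77-fold and 2.7-fold.

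The DNA repair kinase followed. PRKDC had 812 and 827 CPM in UFM1-KO membrane against 439 and 634 CPM in UFM1-KO cytosol, 1030.0 and 1206 CPM in UFSP2-KO membrane against 396 and 596 CPM in UFSP2-KO cytosol, and 852 and 1010.4 CPM in WT membrane against 383 and 410.1 CPM in WT cytosol. No cytosol library reached a membrane library of its line, but library b of the cytosol stood well above library a in both knockouts. Its log2 ratios were 0.61 in UFM1-KO (SE 0.21, edgeR adjusted p = 0.0318), 1.17 in UFSP2-KO (SE 0.22, edgeR adjusted p = 6.14e-05) and 1.23 in WT (SE 0.22, edgeR adjusted p = 3.01e-05). Without library a of the UFM1-KO cytosol the UFM1-KO ratio was 0.37 (edgeR adjusted p = 0.365). The UFM1-KO call was also lost without library a or library b of the UFM1-KO membrane (edgeR adjusted p = 0.0934 and 0.119), and it held without library b of the cytosol.

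Among the ubiquitin ligases, UBR4 and HUWE1 were called higher in the membrane fraction in all 3 lines, with log2 ratios for UBR4 of 0.58 in UFM1-KO, 0.60 in UFSP2-KO and 1.02 in WT. Those of HUWE1 were 0.60 in UFM1-KO, 0.79 in UFSP2-KO and 0.91 in WT. The UFM1-KO calls of both were lost on leaving out any 1 of the 4 libraries, with edgeR adjusted p from 0.0837 to 0.157 for UBR4 and from 0.0514 to 0.139 for HUWE1. HERC2 had 80.9 and 87.4 CPM in UFM1-KO membrane against 80.2 and 71.6 CPM in UFM1-KO cytosol, 74.4 and 79.2 CPM in UFSP2-KO membrane against 47.0 and 45.5 CPM in UFSP2-KO cytosol, and 90.7 and 78.9 CPM in WT membrane against 44.0 and 43.7 CPM in WT cytosol. Its membrane libraries lay in 1 range in all lines, and of the cytosol libraries those of UFM1-KO were closest to them. The log2 ratio of HERC2 was 0.15 in UFM1-KO (SE 0.21, edgeR adjusted p = 0.676), 0.74 in UFSP2-KO (SE 0.22, edgeR adjusted p = 0.0082) and 0.94 in WT (SE 0.21, edgeR adjusted p = 0.000666).

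HERC1, the least abundant member, had log2 ratios of 0.42 in UFM1-KO (edgeR adjusted p = 0.232), 0.78 in UFSP2-KO (edgeR adjusted p = 0.0186) and 0.78 in WT (edgeR adjusted p = 0.0119). BIRC6, the apoptosis inhibitor, had 0.30 in UFM1-KO (edgeR adjusted p = 0.376), 0.63 in UFSP2-KO (edgeR adjusted p = 0.0283) and 0.46 in WT (edgeR adjusted p = 0.115). BIRC6 was the only member not called in WT and the only one whose libraries overlapped between fractions, which was in UFM1-KO. TLN1, the talin that ties integrins to actin, had log2 ratios of 0.38 in UFM1-KO (edgeR adjusted p = 0.166), 0.63 in UFSP2-KO (edgeR adjusted p = 0.0108) and 0.71 in WT (edgeR adjusted p = 0.00477). Membrane libraries did not overlap cytosol libraries, and were higher, for 7 of 8 members in UFM1-KO, 8 in UFSP2-KO and 8 in WT, where 33.8%, 35.2% and 36% of all features did the same. Alternatives also changed the calls over all features: in UFM1-KO DESeq2 called 2724 in either direction, where edgeR called 3195. On leaving out any 1 of its 4 libraries, UFM1-KO had 1 to 2 members called; UFSP2-KO had 3 without library b of its membrane, 4 without either cytosol library and 6 without library a of its membrane; and DESeq2 called 2 members in UFM1-KO.

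**Figure D1:**
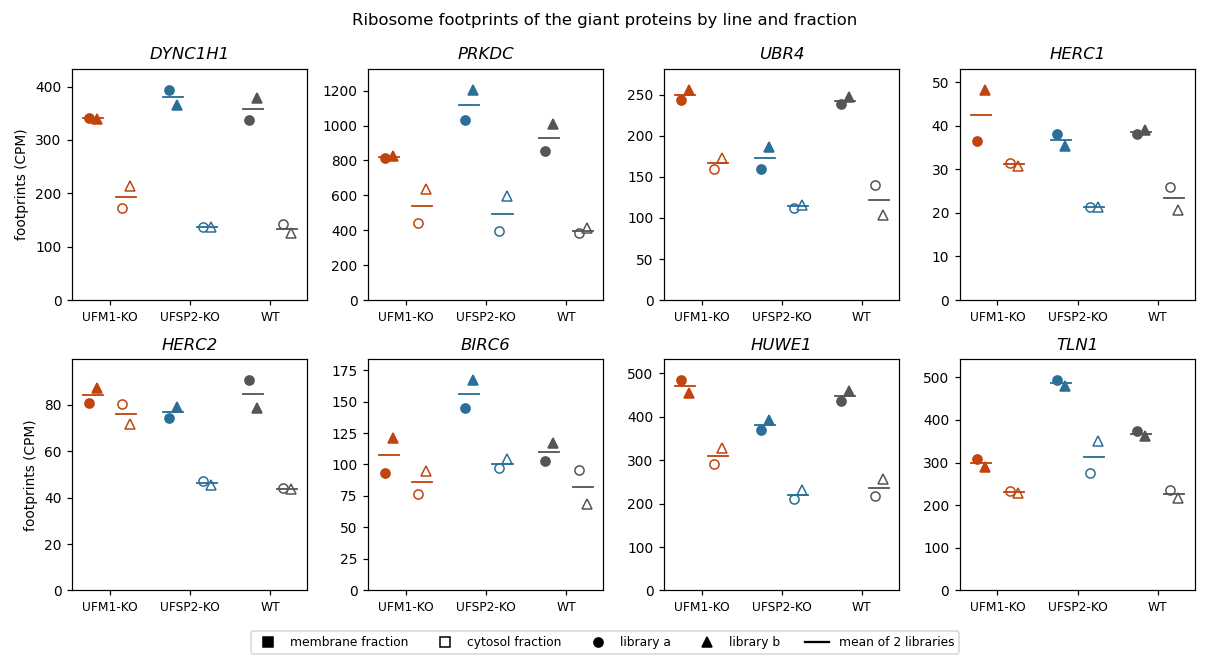
Footprints of the 8 members with footprint values, in CPM on a linear axis from 0, for UFM1-KO, UFSP2-KO and WT. Filled markers are membrane libraries, open markers cytosol libraries, circles and triangles libraries a and b, and short lines the means of 2 libraries; for DYNC1H1 every filled marker lies above every open one, and for HERC2 the UFM1-KO cytosol lies beside the membrane libraries.

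Long transcripts in general were shifted the same way, so the ratio of the giant proteins has to be read against length. The 154 other features at least as long as TLN1 had a median log2 ratio of 0.64 in UFM1-KO, 0.98 in UFSP2-KO and 1.01 in WT, and the 6134 features under 500 codons had -0.13, -0.29 and -0.29. Of these long features 43 in UFM1-KO, 48 in UFSP2-KO and 47 in WT lay over 4-fold higher in the membrane fraction, a range that no member reached. Among the long features under 4-fold, the median log2 ratio was 0.33 in UFM1-KO, 0.60 in UFSP2-KO and 0.70 in WT, and 6, 8 and 7 of 8 members lay above it. Above the median of all 154 long features lay 1, 2 and 3 of 8 members. In WT, 93.1% of the other features of 2500 codons or more had a positive log2 ratio, against 27.6% of those under 250 codons.

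Once the smooth trend of counts with coding length was taken out of each library, the median log2 ratio of the members was -0.23 in UFM1-KO, -0.47 in UFSP2-KO and -0.18 in WT. Then 0 members were called higher and some were called lower, such as HERC2 in UFM1-KO (-0.68) and BIRC6 in WT (-0.69). The trend was fitted on all features tested, including the long ones over 4-fold higher in the membrane fraction, a range that no member reached. The sign of the members' median ratio therefore depended on whether this trend was kept, and the cause of the trend was not tested. With library size alone in place of TMM factors, which moved the median of all features to -0.27 in UFM1-KO, -0.18 in UFSP2-KO and -0.16 in WT, the members' medians were 0.22, 0.56 and 0.78, and HERC2 in UFM1-KO was -0.14 and not called.

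**Figure D2:**
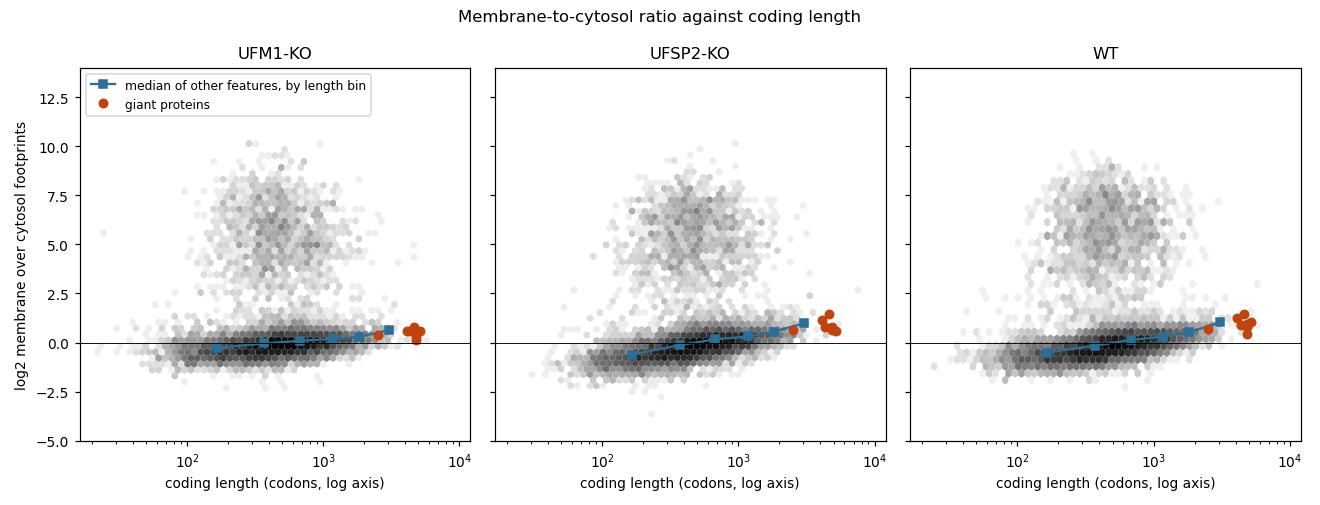
Log2 ratio of membrane to cytosol footprints against coding length in codons (log axis), for UFM1-KO, UFSP2-KO and WT, with features under 20 codons not drawn. Grey cells count other features (darker is more), blue squares are their medians in 6 length bins and orange-red points the 8 members; the medians climb with length in each line, most gently in UFM1-KO, and the members sit near the end of that climb, far below the cloud of features at high ratios.

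The change of the ratio between lines asks whether loss of UFM1 or of UFSP2 altered this distribution. In UFM1-KO against WT the change was negative for all 8 members, with a median of -0.40 on the log2 scale, but 0 passed edgeR's test, where 0.00904% of all features did. At an unadjusted p under 0.05 there were 3 members, where 4.87% of all features reached it, and DESeq2 called 0. Those 3 were HERC2 with -0.80 (SE 0.30, edgeR adjusted p = 0.888), DYNC1H1 with -0.62 (SE 0.28, edgeR adjusted p = 0.968) and PRKDC with -0.62 (SE 0.30, edgeR adjusted p = 0.987). In UFSP2-KO against WT the median was -0.07, from -0.42 for UBR4 to 0.17 for BIRC6, and 0 members passed edgeR's test, where 0.00904% of all features did. DESeq2 called 0, and 0 reached an unadjusted p under 0.05, where 4.4% of all features did.

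These 2 comparisons share the WT libraries. The 154 long features had a median change of -0.37 in UFM1-KO and -0.06 in UFSP2-KO against WT, and the features under 500 codons 0.12 and -0.06. All 8 members kept a negative change in UFM1-KO under RLE factors, library size alone and DESeq2. With the length trend removed 6 of 8 were negative, with a median of -0.12, and without library a of the UFM1-KO membrane or library b of the WT cytosol 7 of 8 were.

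Between lines within the membrane fraction, 0 of 8 members were called by edgeR in UFM1-KO against WT, where 1.26% of all features were, and 0 in UFSP2-KO against WT, where 11.1% were. DESeq2 also called 0 in both. At an unadjusted p under 0.05 there were 0 members in UFM1-KO against WT, where 11.2% of all features reached it, and 3 in UFSP2-KO against WT, where 25.6% did. The members' median log2 change was -0.03 for UFM1-KO and 0.00 for UFSP2-KO, where all features had 0.05 and 0.01. The 3 members in UFSP2-KO were UBR4 with -0.48 (SE 0.20, edgeR adjusted p = 0.129), BIRC6 with 0.51 (SE 0.22, edgeR adjusted p = 0.138) and TLN1 with 0.40 (SE 0.19, edgeR adjusted p = 0.185). All 3 were called when the model held only the groups compared, but calls then rose over all features too, from 1232 to 2123.

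Talin differed between the knockouts in the membrane fraction, and lay the same way without a call in the cytosol and in mRNA. The log2 differences of UFM1-KO from UFSP2-KO were -0.45 in the cytosol (SE 0.20, edgeR adjusted p = 0.144) and -0.41 in mRNA (SE 0.23, edgeR adjusted p = 0.244). TLN1 had 309 and 290.2 CPM in UFM1-KO membrane against 494 and 480.1 CPM in UFSP2-KO membrane, with 375 and 361 CPM in WT membrane. The UFM1-KO libraries were the lowest and the UFSP2-KO libraries the highest, with no overlap between any of the lines. TLN1 was lower in UFM1-KO than in UFSP2-KO by edgeR's test (log2 -0.70, SE 0.19, adjusted p = 0.0106), the only member called of 8, where 10.2% of all features were called lower and 11.2% higher. Leaving out any 1 of the 4 libraries ended the call, with edgeR adjusted p from 0.064 to 0.0828 at log2 changes of -0.75 to -0.66.

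In the cytosol the members lay higher in UFM1-KO than in WT without a call. The median log2 change was 0.46 against a median over all features of 0.01, and all 8 values were positive, also under RLE factors, library size alone and DESeq2. By edgeR 0 of 8 were called, where 0.85% of all features were, 3 reached an unadjusted p under 0.05, where 11.4% of all features did, and DESeq2 called 0. UFM1-KO libraries lay above both WT libraries for 6 of 8 members, where 17.9% of all features did. The 154 long features had a median of 0.39, and those under 500 codons -0.05. Not all 8 members stayed positive in other settings. With the length trend removed, or without library b of the WT cytosol, 6 of 8 were positive. Without library b of the UFM1-KO cytosol 7 of 8 were.

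HERC2 had the largest of these changes against WT, with 80.2 and 71.6 CPM in UFM1-KO cytosol, 47.0 and 45.5 CPM in UFSP2-KO cytosol, and 44.0 and 43.7 CPM in WT cytosol. The UFM1-KO libraries were high and the other 4 lay together. HERC2 was called higher in UFM1-KO than in UFSP2-KO cytosol (log2 0.71, SE 0.22, edgeR adjusted p = 0.0342), the only member of 8, where 5.83% of all features were called higher and 6.2% lower. With library size alone 4 members were called higher (HERC2, DYNC1H1, HUWE1 and UBR4). This scaling moved both ends of the members' range up, from -0.45 and 0.71 with TMM factors to -0.32 and 0.85. The share of all features called higher with it is not given here. With the library letter as a block, HUWE1 (edgeR adjusted p = 0.043) and UBR4 (edgeR adjusted p = 0.0481) were called beside HERC2, though no label ties the letters to a shared culture. Against WT the log2 change of HERC2 was 0.79 (SE 0.22, edgeR adjusted p = 0.0983). With the block it was 0.78 (edgeR adjusted p = 0.0384), where 246 features were called in all, against 94 in the main model. The call between the knockouts was lost with DESeq2 (adjusted p = 0.108) and without the filter on low counts (edgeR adjusted p = 0.0652). It was also lost with the length trend removed and when the model held only the groups compared. Nor did it hold on leaving out any 1 of the 4 libraries, at log2 differences of 0.56 to 0.77.

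DYNC1H1 had a log2 change of 0.54 in the cytosol of UFM1-KO against WT (SE 0.21, edgeR adjusted p = 0.285) and 0.50 against UFSP2-KO (SE 0.20, edgeR adjusted p = 0.116). BIRC6 and TLN1 had 0.11 and 0.03 against WT. In UFSP2-KO against WT cytosol the members' median was 0.06 and 0 of 8 were called by edgeR, where 3.99% of all features were; DESeq2 called 0, and 1 (TLN1, log2 0.48, SE 0.20, edgeR adjusted p = 0.178) reached an unadjusted p under 0.05, where 19% of all features did.

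In whole-cell mRNA, a lower level in a line can mean less of the message per cell or fewer cells that make it, and these cannot be told apart. The ubiquitin ligases HUWE1, UBR4 and HERC2 were lower in UFSP2-KO than in WT, and no member was called between UFM1-KO and WT. Library b of WT, however, held more of every member than library a did. The summed mRNA of the 9 members came to 3798 and 3636 CPM for UFM1-KO, 3959.6 and 3646 CPM for UFSP2-KO, and 3628 and 5775 CPM for WT. Without FLNA, the most abundant member, it came to 2922 and 2739 CPM for UFM1-KO, 2016 and 2203 CPM for UFSP2-KO, and 2406 and 3958 CPM for WT. Library b of WT minus library a had a median of 0.63 on the log2 scale over the members, 0.51 over 146 other long features (mean level 10 CPM or more) and -0.12 over features under 500 codons, and 9 of 9 members were higher in library b. In the other 8 groups the members' median difference between libraries was between -0.14 and 0.14.

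**Figure D3:**
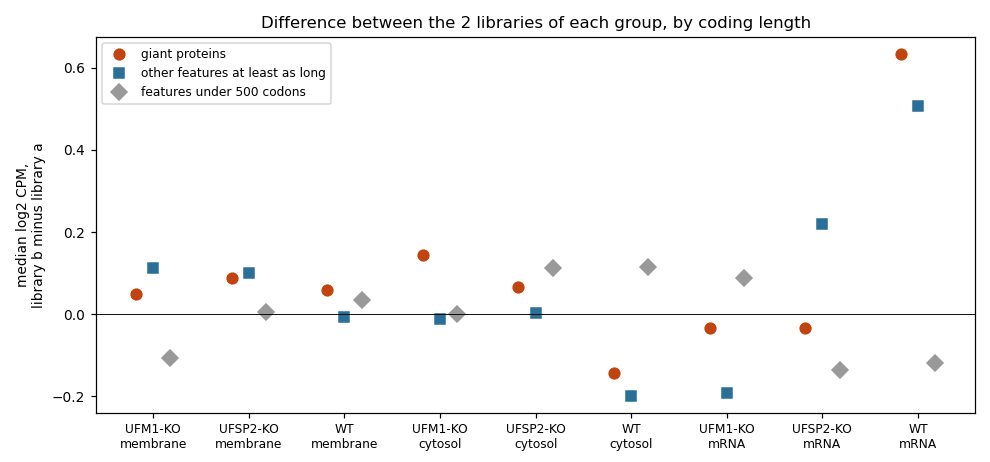
Median difference between the libraries of each group (log2 CPM, library b minus library a) for the members (circles), other features at least as long as the shortest member (squares) and features under 500 codons (diamonds). WT mRNA is at the far right, where members and long features stand at 0.63 and 0.51 while short features are at -0.12.

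By edgeR 0 of 9 members were called in UFM1-KO against WT mRNA, where 1.97% of all features were, and 2 reached an unadjusted p under 0.05, where 16.2% of all features did. DESeq2 called 1 member, FLNA. The median log2 change was -0.05, and 0.21 without library b of WT. FLNA, the actin crosslinker, had 876 and 897 CPM in UFM1-KO against 1221 and 1817 CPM in WT. The UFM1-KO libraries lay together and below both WT libraries. The log2 change of FLNA was -0.78 (SE 0.22, edgeR adjusted p = 0.0867; DESeq2 adjusted p = 0.0435). TLN1 had 179.7 and 188 CPM in UFM1-KO against 217 and 359 CPM in WT, a log2 change of -0.65 (SE 0.23, edgeR adjusted p = 0.17). Without library b of WT the log2 change was -0.46 for FLNA (edgeR adjusted p = 0.551) and -0.24 for TLN1 (edgeR adjusted p = 0.812).

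In UFSP2-KO against WT mRNA, 3 of 9 members (HUWE1, UBR4 and HERC2) were lower by edgeR's test, where 4.79% of all features were. No member was called higher, where 2.39% of all features were. The median log2 change was -0.36 (-0.10 without library b of WT and -0.53 without library a), against -0.01 over all features, -0.34 over 191 other long features and 0.06 over features under 500 codons. Only 2 of 9 members had a positive change, but with the length trend removed 5 of 9 did (range -0.72 to 0.51). HUWE1 had 386 and 377 CPM in UFSP2-KO against 582 and 1137 CPM in WT. The UFSP2-KO libraries lay together below both WT libraries, which lay far apart. Its log2 change was -1.17 (SE 0.25, edgeR adjusted p = 0.0109).

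UBR4 had 144 and 169 CPM in UFSP2-KO against 237 and 452 CPM in WT, a log2 change of -1.14 (SE 0.25, edgeR adjusted p = 0.0131). HERC2 had 157 and 156 CPM in UFSP2-KO against 215 and 302 CPM in WT, a log2 change of -0.73 (SE 0.21, edgeR adjusted p = 0.0451). DYNC1H1, which is not a ligase, had a like change of -0.73 (SE 0.22, edgeR adjusted p = 0.0604) and was called by DESeq2 (adjusted p = 0.0412). The remaining ligases, HERC1 and BIRC6, had log2 changes of -0.36 and 0.15 and were not called. Without library b of WT the change of DYNC1H1 was -0.34 (edgeR adjusted p = 0.562). The UFSP2-KO libraries lay below both WT libraries for 5 of 9 members (HUWE1, UBR4, HERC2, DYNC1H1 and HERC1), where 28.9% of all features did.

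All 3 calls against WT were lost without library b of WT, with log2 changes of -0.61 for HUWE1 (edgeR adjusted p = 0.244), -0.60 for UBR4 (edgeR adjusted p = 0.295) and -0.46 for HERC2 (edgeR adjusted p = 0.424). The call of HERC2 was also lost on leaving out either UFSP2-KO library (edgeR adjusted p = 0.0853 and 0.146) and with RLE factors (edgeR adjusted p = 0.0536). The part of library b of WT in these differences was not tested beyond these values.

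**Figure D4:**
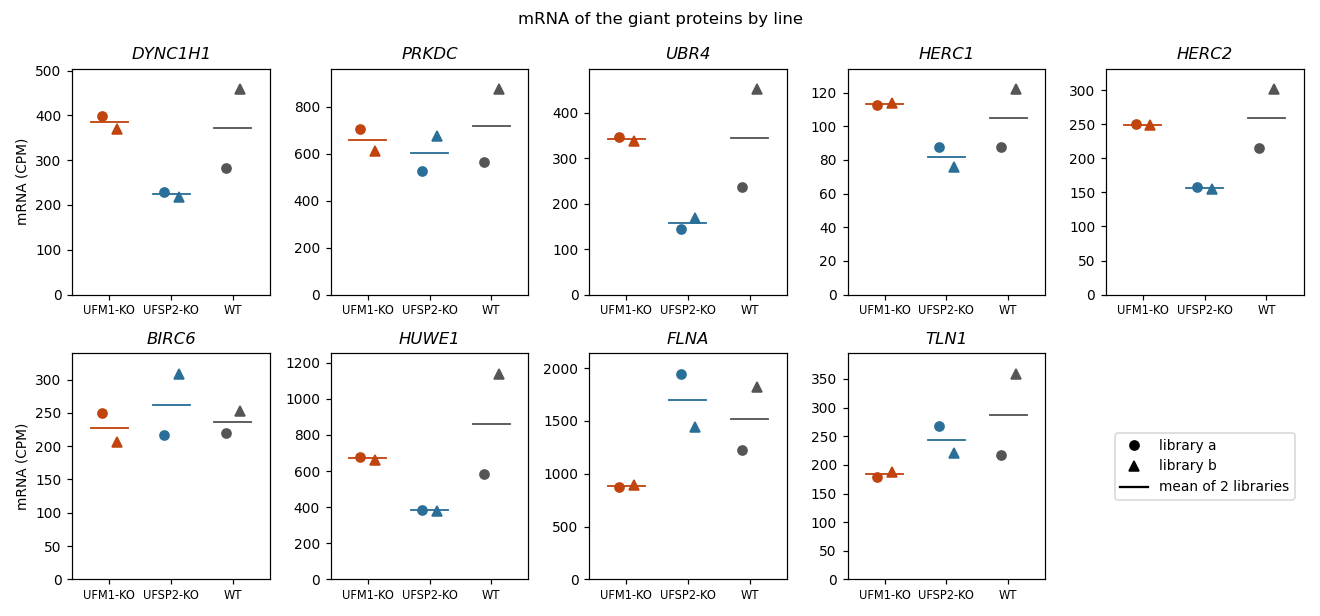
Whole-cell mRNA of the 9 members in CPM, on linear axes from 0, for UFM1-KO, UFSP2-KO and WT; circles and triangles are libraries a and b and short lines the means of 2 libraries. In WT the triangle lies above the circle for every member, and for UBR4, HERC2, HUWE1 and DYNC1H1 the UFSP2-KO libraries are the lowest of the 6.

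The comparison of the knockouts with each other does not use the WT libraries in its contrast. Long features also differed between libraries a and b of each knockout, in opposite directions in the 2 lines. By edgeR 4 of 9 members were higher in UFM1-KO than in UFSP2-KO mRNA, where 7.93% of all features were, and 1 was lower, where 8.03% were. UBR4 had 346 and 338 CPM in UFM1-KO against 144 and 169 CPM in UFSP2-KO, a log2 difference of 1.13 (SE 0.25, edgeR adjusted p = 0.0069), or 2.19-fold. HUWE1 had 679.9 and 663 CPM in UFM1-KO against 386 and 377 CPM in UFSP2-KO, a log2 difference of 0.81 (SE 0.25, edgeR adjusted p = 0.0371). In both genes the libraries of a line lay close together and the lines far apart.

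DYNC1H1 had 399 and 369 CPM in UFM1-KO against 229 and 218 CPM in UFSP2-KO, a log2 difference of 0.78 (SE 0.22, edgeR adjusted p = 0.027). HERC2 had 250.2 and 249 CPM in UFM1-KO against 157 and 156 CPM in UFSP2-KO, a log2 difference of 0.67 (SE 0.21, edgeR adjusted p = 0.0374). FLNA went the other way, with 876 and 897 CPM in UFM1-KO against 1944 and 1443 CPM in UFSP2-KO, a log2 difference of -0.93 (SE 0.22, edgeR adjusted p = 0.00995). The UFSP2-KO libraries of FLNA lay apart from each other but both above the UFM1-KO libraries.

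The other members were not called between the knockouts: HERC1 had a log2 difference of 0.47 (edgeR adjusted p = 0.156), TLN1 -0.41 (edgeR adjusted p = 0.244), BIRC6 -0.21 (edgeR adjusted p = 0.553) and PRKDC 0.13 (edgeR adjusted p = 0.735). Of the ubiquitin ligases, 3 of 5 were thus higher in UFM1-KO, and of the actin-linked pair FLNA was lower. The median over the members was 0.47, against 0.18 over 191 other long features and -0.03 over features under 500 codons. The call of UBR4 held on leaving out any 1 of the 4 libraries and with the length trend removed (log2 0.81, edgeR adjusted p = 0.00672). Those of DYNC1H1, HUWE1 and HERC2 were lost with the length trend removed and without either UFSP2-KO library, those of DYNC1H1 and HERC2 also without library a of UFM1-KO, that of HERC2 also without library b of UFM1-KO, and that of FLNA without library a of UFSP2-KO (log2 -0.70, edgeR adjusted p = 0.0713).

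**Figure D5:**
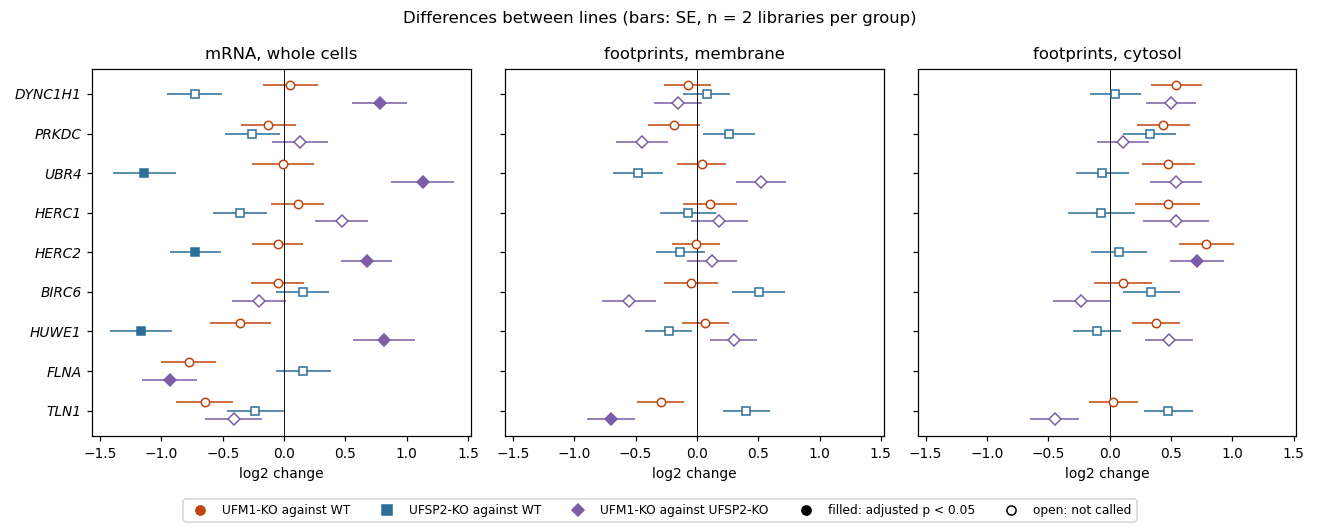
Log2 changes of the members in mRNA (9 members), membrane footprints (8) and cytosol footprints (8), for UFM1-KO against WT (circles), UFSP2-KO against WT (squares) and UFM1-KO against UFSP2-KO (diamonds); bars are SE and filled markers are edgeR calls. In mRNA the filled squares of UBR4, HERC2 and HUWE1 lie left of 0 and the filled diamonds of DYNC1H1, UBR4, HERC2 and HUWE1 right of it, while in footprints only TLN1 at the membrane and HERC2 in the cytosol have a filled marker.

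The footprint changes of the ubiquitin ligases can be set beside those of their mRNA. In UFSP2-KO HUWE1 had a log2 change of -1.17 in mRNA against WT, and -0.23 in membrane and -0.11 in cytosol footprints. In the same order UBR4 had -1.14, -0.48 and -0.06, and HERC2 had -0.73, -0.13 and 0.07. HERC1 had -0.36, -0.08 and -0.07, and BIRC6 had 0.15, 0.51 and 0.34. Subtracting the mRNA change of each gene from its footprint change, in 1 model over all 18 libraries, gave medians over the members of -0.03 at the UFM1-KO membrane, 0.57 at the UFSP2-KO membrane, 0.51 in the UFM1-KO cytosol and 0.79 in the UFSP2-KO cytosol. By edgeR 0 of 8 members were called in any of the 4 comparisons, where 0%, 0.0792%, 0% and 0.0158% of all features were, and DESeq2 called 0. At an unadjusted p under 0.05 there were 0, 2, 3 and 5 members, where 4.28%, 8.79%, 5.96% and 6.88% of all features reached it. Without library b of WT mRNA the medians were -0.28, 0.21, 0.13 and 0.40.

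The largest value was that of UBR4 in the UFSP2-KO cytosol, 1.12 (SE 0.33, edgeR adjusted p = 0.457), next to HUWE1 there with 1.11 (SE 0.32, edgeR adjusted p = 0.4). Without library a of WT mRNA, edgeR called both in the cytosol (adjusted p = 0.0413 for UBR4 and 0.028 for HUWE1) and HUWE1 at the membrane (adjusted p = 0.0427). Without library b of WT mRNA the cytosol values were 0.59 for UBR4 and 0.56 for HUWE1 and neither was called by edgeR, and that of HUWE1 at the membrane was 0.35, against 0.90 with all libraries. Other long features, 172 in this model, had medians of 0.00, 0.46, 0.40 and 0.50 in the same order, and those under 500 codons 0.00, -0.19, -0.09 and -0.09.

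Footprints per mRNA within a line, as log2 of the ratio of CPM (0.5 added to each) relative to the median of 10240 features, placed TLN1 above and HERC1 and HERC2 below the other members. TLN1 was highest in UFM1-KO with 1.34 at the membrane and 1.37 in the cytosol, and in UFSP2-KO with 1.70 and 1.44; in WT its values were 1.05 and 0.74. PRKDC stood at 0.95 and 0.73 for UFM1-KO, 1.60 and 0.79 for UFSP2-KO, and 1.05 and 0.22 for WT. HERC2 had -0.93 and -0.67 for UFM1-KO, -0.33 and -0.66 for UFSP2-KO, and -0.94 and -1.48 for WT. HERC1 had -0.79 and -0.80 for UFM1-KO, -0.45 and -0.83 for UFSP2-KO, and -0.77 and -1.09 for WT. They were the 2 lowest in each line and fraction. At the WT membrane PRKDC and TLN1 had the same value. These ratios are descriptions with no test, and those of WT rest on the mean of 2 mRNA libraries that lay apart.

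Across the 12 footprint libraries the profile of the members' mean log2 CPM was followed most closely by DYNC1H1 (Pearson's r = 0.99) and PRKDC (0.95), and least by BIRC6 and TLN1 (0.72 each), where each member is itself part of the mean. The 5 features outside the members with the profile most like it, of 7789 with a mean of at least 10 CPM, had r of 0.974 to 0.98 and coding lengths of 1772, 328, 650, 660 and 450 codons. The closest was transcript ENST00000319715.7, of 1772 codons. The points of these correlations share the fractions and lines, and the correlations are descriptions.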

How the data were processed

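Ribosome footprints (12 libraries) and whole-cell mRNA (6 libraries) were deposited by the authors as raw counts per versioned Ensembl transcript, with a length per transcript. The build was GRCh38 and the aligner TopHat2 2.1.1, per the submitters' processing notes. How reads were assigned to transcripts, and from which annotation, is not given in the sources used here. Reads shared by isoforms appear to be counted for each of them, so entries with identical counts were merged: 21223 footprint entries with a count became 14377 features. Of the mRNA entries, the 25629 matched to footprint entries by identifier and length were used, 17680 with another version number, plus the members' entries.

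Counts were tested with edgeR 4.0.16 (quasi-likelihood, two-sided) in R 4.3.3 after filterByExpr (minimum count 10) and TMM, with 1 coefficient per group, over 12, 6 or all 18 libraries. Features with a Benjamini-Hochberg adjusted p under 0.05 within a comparison were called; SE was taken from the F statistic. All members passed the filter. The procedure was checked on simulated counts with changes larger than those of the members and no length trend. That check does not show how well changes of the members' size are called. Alternatives were RLE factors, library size only, no filter, DESeq2 1.42.0, only the groups compared, a replicate block, unmerged entries, removal of the length trend (lowess, span 0.3) and leaving out each library; use of all mRNA entries and a crossed block were added after the data were seen. Members and lists were chosen with earlier results of these data known. All members with values in an assay were tested in each of its comparisons, but not every passage names them all. Where only some are named, they are mostly those called or with the larger changes. Outside the members, the 5 features most like their mean profile are described. The planned gene lists were not used, because no table at hand pairs transcript identifiers with gene names.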

Additional observations from a re-analysis of the deposited data

Results flagged for a closer look

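The results below stood out because the 2 knockout lines differed from each other by edgeR's quasi-likelihood test of the difference itself (Benjamini-Hochberg adjusted p under 0.05). In membrane footprints TLN1 differed by -0.70 on the log2 scale between UFM1-KO and UFSP2-KO. In cytosol footprints HERC2 differed by 0.71. In whole-cell mRNA the log2 differences were 0.78 for DYNC1H1, 1.13 for UBR4, 0.67 for HERC2, 0.81 for HUWE1 and -0.93 for FLNA. Each line is 1 clone, so the knockouts cannot be told apart from other differences between the clones.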

How the results depend on the processing

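The 29 called values of members were recomputed 356 times: 262 kept direction and call, 79 kept direction only and 15 turned round. All 15 turned with the length trend removed, in membrane against cytosol. In UFM1-KO the log2 ratios were then -0.19 for HUWE1, -0.16 for PRKDC and -0.28 for UBR4; in UFSP2-KO -0.66 for BIRC6, -0.50 for HERC1, -0.54 for HERC2, -0.43 for HUWE1, -0.018 for PRKDC, -0.25 for TLN1 and -0.73 for UBR4; in WT -0.39 for HERC1, -0.23 for HERC2, -0.19 for HUWE1, -0.044 for TLN1 and -0.17 for UBR4. The members' medians in membrane against cytosol were -0.23 in UFM1-KO, -0.47 in UFSP2-KO and -0.18 in WT, with 0, 0 and 0 called higher and 1, 2 and 1 lower. The other medians that moved were, in UFM1-KO against UFSP2-KO, 0.31 in cytosol (0 called higher, 1 lower), 0.25 at the membrane (2 higher) and 0.14 in mRNA (1 higher, 2 lower). UFM1-KO against WT cytosol had 0.15, its change of ratio -0.12, UFSP2-KO against WT -0.067 in cytosol and -0.24 at the membrane (1 lower), and its footprint change less mRNA change 0.21 in cytosol and -0.11 at the membrane. The members lie at the far end of the lengths the trend was fitted on; the cause of the other changes was not tested.

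With library size only, medians were 0.22, 0.56 and 0.78 for membrane against cytosol in UFM1-KO, UFSP2-KO and WT (1 and 5 called higher in the knockouts), and 0.62 in cytosol and 0.55 in mRNA for UFM1-KO against UFSP2-KO (4 called higher in cytosol, 1 at the membrane). DESeq2 called 0 members higher in UFM1-KO against UFSP2-KO cytosol, 2 in UFM1-KO membrane against cytosol and 1 lower in UFM1-KO against WT mRNA. No filter gave 0 and 2 for the first 2 of these. RLE factors called 2 members lower in UFM1-KO against UFSP2-KO membrane. A model of only the groups compared gave 0 higher in UFM1-KO against UFSP2-KO cytosol, 1 higher and 3 lower at their membrane, 2 higher and 1 lower in UFSP2-KO against WT membrane, and 1 lower in UFM1-KO against WT mRNA. For UFSP2-KO against WT membrane it called 2123 features in all, against 1232 in the main model.

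Libraries with the same letter had correlations of 0.05 to 0.33 between their deviations in footprints and -0.68 to 0.06 in mRNA. Of the 15 in footprints all were positive and 11 were over 0.1; the labels tie no letter to a shared culture or day. With the letter as a replicate block, UFM1-KO against UFSP2-KO had 3 members called higher in cytosol (HERC2, HUWE1 with edgeR adjusted p = 0.043 and UBR4 with 0.0481), and 1 higher and 3 lower at the membrane; UFM1-KO against WT cytosol had 1 higher (HERC2, log2 0.78, edgeR adjusted p = 0.0384). A crossed pairing of the UFSP2-KO mRNA libraries was added after the data, with the correlation of -0.68 between the knockouts, were seen. It gave 890, 2208 and 3571 features called in UFM1-KO against WT, UFSP2-KO against WT and UFM1-KO against UFSP2-KO. The main model gave 274, 998 and 2218. There was 1 member lower in the first, 4 lower in the second, and 4 higher and 1 lower in the third. A pairing picked from these data lends these calls no support.

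On leaving out 1 library, the lone library of its group was assumed to vary like the other groups. Members called higher in membrane against cytosol ranged from 1 to 2 in UFM1-KO and 3 to 6 in UFSP2-KO. For UFM1-KO against UFSP2-KO they ranged from 0 to 0 in cytosol (median 0.33 to 0.55) and 1 to 3 in mRNA (median 0.37 to 0.58); members called lower ranged from 0 to 0 at the membrane and 0 to 1 in mRNA. UFM1-KO against WT membrane had medians of -0.0798 to 0.0391, and UFSP2-KO against WT mRNA 0 to 4 members lower. Footprint change less mRNA change in UFSP2-KO had 0 to 1 members higher at the membrane and 0 to 2 in cytosol. Over all features, UFSP2-KO against WT mRNA had 998 calls, 195 without library b of WT and 2139 with all mRNA entries; UFM1-KO against WT mRNA had 274, 60 without that library and 618 with all entries.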
